A study of Mus musculus with 38 samples.

Results

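The 45 genes described here encode the machinery of mitosis and cytokinesis. They were named by gene symbol, by a rule that holds no expression value, from the 24028 genes of a count table of mouse CD4 T cells. All 45 were among the 13650 genes that passed the filter on low counts and were tested, so none was lost to the filter. By role they fall into 7 drivers of mitotic entry, 5 spindle checkpoint genes, 4 genes of the anaphase step, 4 subunits of the chromosomal passenger complex and 7 centromere and kinetochore genes. The other members are 9 spindle motors and microtubule binders, 2 cytokinesis genes, 6 genes of chromosome structure and the transcription factor gene Foxm1.

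The study measured polyadenylated RNA in naive CD4 T cells and in the same kind of cells after 24 h of stimulation, in mice of 5 genotypes, to ask how the microRNA cluster miR-17~92 relates to costimulation through CD28. The rescue mice were CD28-/- and carried CD4cre together with a Rosa26 transgene that expresses miR-17~92 from the CAG promoter once Cre has removed a stop cassette. The CD28-/- mice carried the CD28 knockout on the B6 background and no Cre. T1792tg/tg mice carried CD4cre and the same transgene with CD28 intact, T1792delta/delta mice carried CD4cre and a loxP-flanked miR-17~92 locus, and wt mice were wildtype. CD4cre is active in T lineage cells and is shared by rescue, T1792tg/tg and T1792delta/delta mice. No genotype carried Cre alone, so an effect of Cre and one of the cluster cannot be told apart in comparisons of a Cre genotype with one that lacks Cre. Cells from lymph nodes and spleen, pooled within each male or female mouse, were purified with a kit for naive CD4 T cells, and for stimulation were put on plates coated with anti-CD3 (0.5 µg/ml) and anti-CD28 (0.2 µg/ml) in medium with 50 U/ml interleukin-2. The CD28-/- and rescue cells received the same plates, anti-CD28 included, and no culture without stimulation was part of the 38 libraries. Effects of the antibodies, of 24 h in culture and of interleukin-2 therefore cannot be told apart, and stimulation below stands for all of them together. Each of the 10 groups of genotype and state held 4 libraries, except the rescue groups with 3 each.

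A cell enters mitosis when cyclin B and Cdk1 become active, helped by the Aurora and Polo-like kinases. Kinetochores then tie chromosomes to spindle microtubules, and the spindle checkpoint holds back the anaphase-promoting complex until every chromosome is attached. Once that complex is released, securin is destroyed, separase cuts cohesin and the sister chromatids part, after which the central spindle and a contractile ring divide the cell. Most of these genes are transcribed in the G2 and M phases, under the DREAM and MuvB complexes, B-Myb and FoxM1, and their messages are low in resting T cells. A naive T cell leaves quiescence when its antigen receptor is engaged, and CD28 costimulation favours growth, interleukin-2 production and entry into the cell cycle.

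The promoters of many of these genes carry the cell cycle genes homology region (CHR), to which the MuvB core binds, and CCAAT boxes, to which NF-Y binds. RefSeq windows of 250 bases before to 50 bases after the gene start (GRCm38.p6) were matched for 37 of the 45 genes, 40 windows in all, and not for Smc4, Incenp, Aurkb, Foxm1, Spc24, Tpx2, Ccna2 and Kif20a. The windows follow the RefSeq start, which for Pttg1 and Kif2c lies well inside the gene as the reference annotation bounds it. CHR letters (TTTGAA or TTCGAA, either strand) were present in 80% of the members' windows, against 19.2% of all 32851 windows of that length. CCAAT (either strand) was present in 77.5% of the members' windows, against 37.4% of all, and both motifs in 72.5%, against 7.52% of all. E2F letters (TTTCCCGC, TTTGGCGC, TTTCGCGC or TTTGCCGC, either strand) were present in 7.5% of the members' windows, against 2.26% of all. No string of these sets contains another. The windows of Cdk1, the mitotic kinase, and Plk1, the Polo-like kinase, are shown because both genes rose after stimulation, and that of Cenpa, the centromeric histone H3, because it fell. Capitals mark the motifs; a CCAAT on the other strand reads ATTGG.
Cdk1 (chr10:69352863-69353162, minus strand): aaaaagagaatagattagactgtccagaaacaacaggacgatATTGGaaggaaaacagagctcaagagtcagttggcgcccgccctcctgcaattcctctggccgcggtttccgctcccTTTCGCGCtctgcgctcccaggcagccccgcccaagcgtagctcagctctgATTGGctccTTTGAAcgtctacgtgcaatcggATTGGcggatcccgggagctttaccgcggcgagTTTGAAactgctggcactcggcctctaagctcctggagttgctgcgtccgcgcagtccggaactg
Plk1 (chr7:122159185-122159484, plus strand): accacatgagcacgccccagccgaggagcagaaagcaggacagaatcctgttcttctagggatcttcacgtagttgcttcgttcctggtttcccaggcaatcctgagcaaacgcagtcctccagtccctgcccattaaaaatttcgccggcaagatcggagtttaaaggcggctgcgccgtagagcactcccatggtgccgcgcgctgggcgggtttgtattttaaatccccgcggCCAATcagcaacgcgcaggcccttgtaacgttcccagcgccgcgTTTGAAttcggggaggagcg
Cenpa (chr5:30666636-30666935, plus strand): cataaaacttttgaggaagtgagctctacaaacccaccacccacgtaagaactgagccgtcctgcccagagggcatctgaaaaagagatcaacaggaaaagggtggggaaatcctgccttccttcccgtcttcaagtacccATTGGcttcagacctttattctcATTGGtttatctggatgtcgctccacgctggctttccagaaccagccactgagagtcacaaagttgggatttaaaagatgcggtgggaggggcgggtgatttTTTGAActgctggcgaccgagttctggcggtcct
The Cdk1 window holds all 3 kinds of motif, and the Plk1 and Cenpa windows hold CHR and CCAAT letters. These matches describe the letters of the windows only.

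Each library held between 19.4 M and 28 M counts (M for mega). Levels are given as CPM, counts scaled to the library size after its adjustment by edgeR's TMM factor. A gene was called changed at a Benjamini-Hochberg adjusted p below 0.05 in edgeR's quasi-likelihood test over all 13650 genes. Sex, read from the libraries, was female in all CD28-/- and rescue libraries, whereas each state held 1 female T1792tg/tg library of 4, 2 female T1792delta/delta libraries of 4 and 3 female wt libraries of 4. Counts of Cd28 did not check the knockout label, since naive libraries labelled CD28-/- held 737 ± 135 CPM and wt libraries 825 ± 86.8 CPM (SD, n = 4 each), and at 24 h they held 539 ± 40.4 CPM and wt libraries 342 ± 35.5 CPM. Which exons the allele lacks was not used here. Mir17hg, the host gene of the cluster, was at 30.2 ± 4.22 CPM in rescue (n = 3), 34.7 ± 4.18 CPM in T1792tg/tg, 172 ± 11.8 CPM in T1792delta/delta and 20.7 ± 2.44 CPM in wt libraries at 24 h. In naive libraries it was at 97.3 ± 12.2 CPM in rescue, 96.6 ± 10.1 CPM in T1792tg/tg, 54.4 ± 7.88 CPM in T1792delta/delta and 51.6 ± 7.25 CPM in wt. It was therefore highest at 24 h in the genotype labelled as the deletion, and its counts did not check that label. Markers of CD4 T cells summed to between 3840 and 11225 CPM in group means. B cell markers summed to between 72.2 and 118 CPM at 24 h and between 299 and 481 CPM in naive groups, and myeloid markers to between 35.4 and 38.6 CPM at 24 h and between 158 and 309 CPM in naive groups. Naive CD28-/- replicate 1 and naive rescue replicate 2 stood above the other libraries of their groups for 16 and 14 of the 45 members (a gap of over 1 on the log2 scale). Red cell markers without Tfrc summed to 489 CPM in that CD28-/- library and between 18.9 and 136 CPM in the other 3, and to 838 CPM in that rescue library and 40.5 and 37.6 CPM in the other 2. The same CD28-/- library held 473 CPM of B cell markers, against between 240 and 272 CPM in the other 3, and 242 CPM of myeloid markers, against between 114 and 158 CPM. The part of these markers in the members' levels was not tested. At 24 h, CD28-/- replicate 2, T1792delta/delta replicate 3 and wt replicate 1 were low in 91, 99 and 27 genes by the same measure. The median length of those genes was 6187, 6897 and 5563 bases, against 3184 bases over all genes tested. Among the members they were Cenpe, Cenpf, Smc4 and Mki67 in the first library and Cenpe, Cenpf and Mki67 in the second, and none in wt replicate 1. These 3 libraries are called low in long transcripts below, although not every long member was low in them. Prc1 (7723 bases) and Espl1 (6684 bases) held 70.9 and 112 CPM in T1792delta/delta replicate 3, the highest of its group.

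Nearly the whole set was higher after stimulation in wt cells. Of the 45 members 42 rose and 3 fell at 24 h, while 41.3% of all genes tested rose and 43.9% fell. The members' median log2 fold change was 3.45, against -0.06 over all genes tested, and single members ran between -0.94 and 5.69. The 24 h and naive libraries did not overlap for any of the 45, and the share of all genes without overlap was not counted. Summed over the members without Smc4, the level was 4203 ± 577 CPM in 24 h wt libraries and 523 ± 56 CPM in naive wt libraries (SD, n = 4 each). In bulk RNA, fewer cells of a type and less RNA per cell cannot be told apart, so these levels do not separate the share of cells in mitosis from the messages per cell. CPM are also relative to the other RNA of the same library. Rises and falls with stimulation are therefore relative, and do not give the change in amount per cell.

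**Figure D1:**
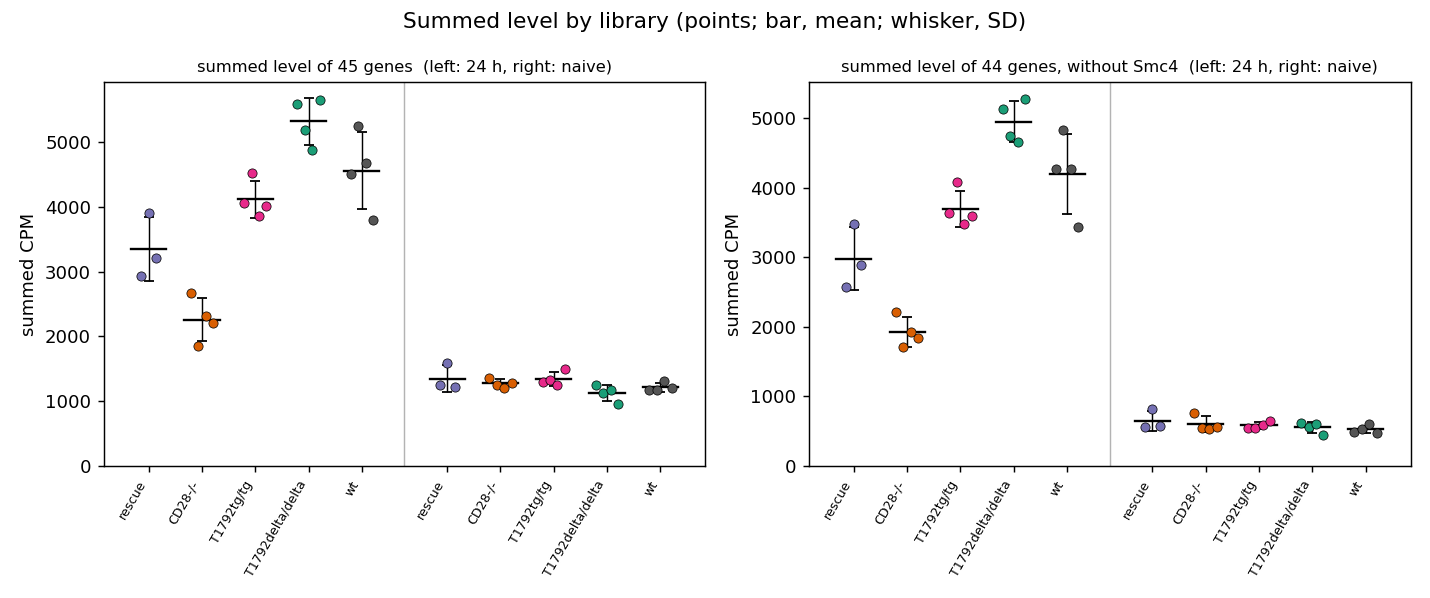
Summed level of the 45 members and of the 44 members without Smc4 in each library (CPM, vertical axis), by genotype on the horizontal axis, with 24 h libraries left of naive ones, bars at the group means and whiskers of 1 SD. Without Smc4, every 24 h library lies above every naive library, and the 24 h CD28-/- libraries, at a mean of 1923 CPM, lie lowest among the 24 h groups.

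Among the drivers of mitotic entry, Cdk1 held 207, 222, 193 and 159 CPM in the 24 h wt libraries, against 2.89, 3.55, 5.52 and 3.41 CPM in the naive wt libraries. Every stimulated library was far above every naive one, and Cdk1 rose by 5.65 ± 0.27 on the log2 scale (± SE; edgeR adjusted p = 3.3e-20). Cyclins Ccna2 and Ccnb1 rose by 5.14 and 4.24 on the log2 scale, Plk1 by 3.21, Aurka, the spindle pole kinase, by 2.34, and Plk4, the kinase of centriole duplication, by 2.13. Ccnb2, the second B-type cyclin, rose least of the 7, by 1.62.

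In the passenger complex, which corrects faulty attachments, the kinase gene Aurkb held 116, 125, 104 and 85.3 CPM in 24 h wt libraries, against 2.3, 2.14, 2.43 and 1.37 CPM in naive wt libraries. The 2 groups of libraries lie far apart, and Aurkb had the largest rise of the set, 5.69 ± 0.21 on the log2 scale (edgeR adjusted p = 1.1e-23). Its scaffold Incenp held 144, 149, 136 and 107 CPM in 24 h wt libraries, against 24.4, 24.7, 25.7 and 25.5 CPM in naive ones. Incenp had been present in naive cells at an even level, and its rise was smaller, 2.42 ± 0.09 (edgeR adjusted p = 3.0e-23). Birc5, survivin, and Cdca8, borealin, rose by 4.56 and 4.45.

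The checkpoint genes Bub1, Ttk and Bub1b, all of them kinases or kinase-like proteins, rose by 4.92, 4.86 and 3.67 on the log2 scale. Mad2l1, which encodes Mad2, the inhibitor of Cdc20, held 139, 145, 132 and 120 CPM in 24 h wt libraries, against 12.4, 14.2, 14 and 12.7 CPM in naive wt libraries. Its libraries were tight within each state, and it rose by 3.33 ± 0.13 (edgeR adjusted p = 3.1e-23). Bub3, a WD40 protein that partners Bub1, was the checkpoint gene with the smallest rise, 1.40. Of the anaphase genes, Espl1, separase, rose by 4.61, Ube2c, the ubiquitin-conjugating enzyme of the anaphase-promoting complex, by 3.89 and its activator Cdc20 by 2.89. Pttg1, securin, which keeps separase inactive, went the other way. It held 19.2, 20.1, 20.3 and 20.4 CPM in 24 h wt libraries, against 35, 37, 31.9 and 36.7 CPM in naive ones. Its libraries did not overlap, and Pttg1 fell by 0.81 ± 0.10 on the log2 scale (edgeR adjusted p = 9.9e-09).

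All 4 subunit genes of the Ndc80 complex, which binds microtubules at the kinetochore, rose: Spc24 by 5.32, Nuf2 by 5.09, Spc25 by 4.23 and Ndc80 by 2.37. The large kinetochore proteins Cenpf and Cenpe followed with 3.55 and 3.10. Cenpa, whose product marks the centromere, held 30.8, 31.7, 25.9 and 23.9 CPM in 24 h wt libraries, against 51.8, 57, 52.1 and 39.8 CPM in naive wt libraries. It was lower in every stimulated library than in any naive one and fell by 0.84 ± 0.11 (edgeR adjusted p = 1.5e-08). The 9 spindle genes rose by between 1.15 and 4.86 on the log2 scale, with the microtubule depolymerase Kif2c first and Kif23, the central spindle motor, last. Kif23 held 48, 55, 44.8 and 35.8 CPM in 24 h wt libraries, against 20.3, 25.2, 22.7 and 14.3 CPM in naive ones, a rise of 1.15 ± 0.15 (edgeR adjusted p = 1.2e-08) in which the libraries did not overlap. Between them stood Kif4, the chromosome-arm motor, Kif11, the motor that pushes the poles apart, Tpx2, which activates Aurora A, Kif20a, Hmmr, Nusap1 and Prc1, the microtubule bundler, with rises of between 2.75 and 3.98.

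The cytokinesis genes Anln, anillin, and Ect2, the exchange factor that activates RhoA, rose by 3.06 and 3.04. Top2a, which untangles sister chromatids, held 740, 803, 694 and 546 CPM in 24 h wt libraries, against 28.3, 33.1, 35.1 and 24.9 CPM in naive wt libraries, a rise of 4.52 ± 0.20 with the groups far apart (edgeR adjusted p = 2.2e-21). The condensin genes split. Ncapg rose by 4.70, Smc2 by 2.60 and Ncapd2 by 2.0 on the log2 scale, whereas Smc4 fell by 0.94 ± 0.21 (edgeR adjusted p = 1.4e-04). Smc4 held 233, 420, 407 and 370 CPM in 24 h wt libraries, against 681, 634, 706 and 726 CPM in naive wt libraries, so every stimulated library was lower although replicate 1, one of the libraries low in long transcripts, was the lowest. In naive wt libraries Smc4 made up more of the members' summed CPM than the other 44 together, a share that also depends on transcript length. Mki67, the chromosome surfactant Ki-67, rose by 3.03. Foxm1, the transcription factor of the G2/M program, held 71.4, 73.4, 67 and 52.2 CPM in 24 h wt libraries, against 8.08, 9.9, 9.83 and 7.02 CPM in naive ones. It rose by 2.92 ± 0.12 with no overlap (edgeR adjusted p = 1.2e-21).

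Per kilobase of transcript, the highest levels among the members in 24 h wt libraries were 125 ± 19.7 CPM per kb for Top2a, 88.5 ± 2.05 for Bub3, 86.8 ± 20.8 for Smc4, 79.4 ± 13.5 for Ccna2 and 76.4 ± 6.26 for Mad2l1 (SD, n = 4). Bub3, Smc4, Ccna2 and Mad2l1 follow each other by less than their spread. The lowest were Cenpf at 2.92 ± 0.846 and Anln at 3.15 ± 0.482 CPM per kb, which also lie within each other's spread.

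**Figure D2:**
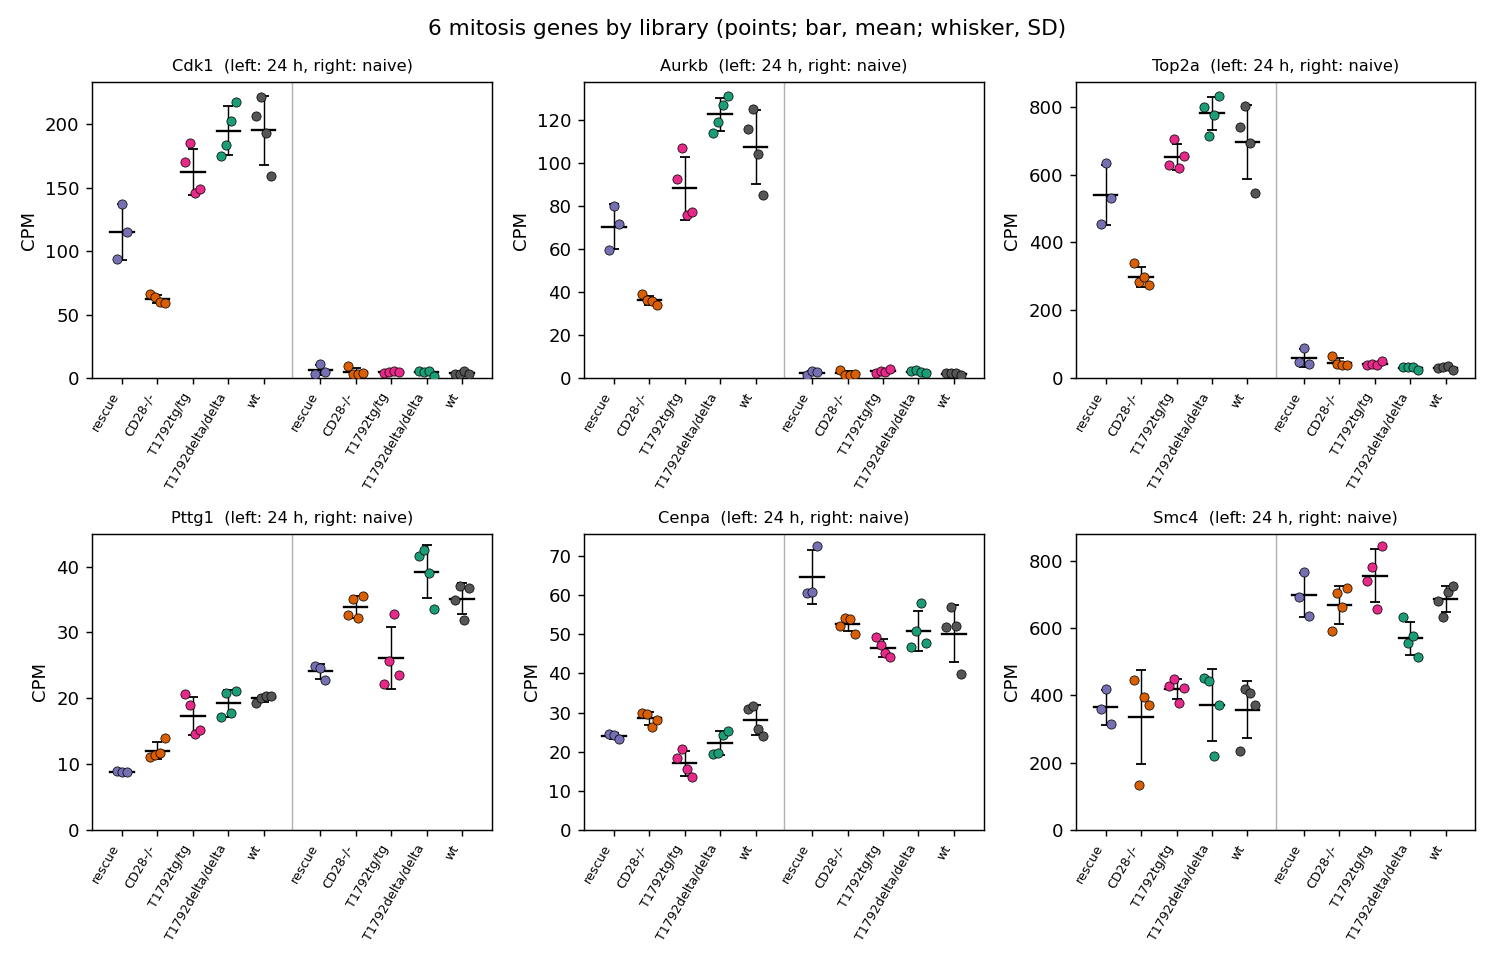
Level of Cdk1, Aurkb, Top2a, Pttg1, Cenpa and Smc4 in each of the 38 libraries (CPM, vertical axis), by genotype on the horizontal axis, 24 h left of naive, with a bar at each group mean and whiskers of 1 SD. Cdk1, Aurkb and Top2a lie far higher at 24 h in every genotype, while Pttg1, Cenpa and Smc4 lie lower at 24 h.

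The other genes of the pathway and of the cell cycle gave the setting. Of 107 further mitosis genes 86 rose and 11 fell in wt cells, with a median of 1.99. Among them Trip13, the AAA ATPase that remodels Mad2, rose by 6.45 ± 0.18 and the kinetochore gene Zwilch by 4.49 ± 0.12. Of 12 DREAM and MuvB genes 9 rose and 1 fell; Mybl2, which encodes B-Myb, rose by 4.27 ± 0.18 and Rbl2, the pocket protein p130 of resting cells, fell by 1.95 ± 0.08. All 40 DNA replication genes rose, with a median of 3.30, and the smallest p was that of the helicase gene Mcm3, at 3.77 ± 0.06 (edgeR adjusted p = 1.7e-32). Of 18 genes of the G1 phase 13 rose and 4 fell, with E2f1 higher by 4.08 ± 0.10 and Cdkn1b, the inhibitor p27, lower by 4.59 ± 0.16. Markers of other cells fell at the same time: 9 of 10 B cell markers, 12 of 12 myeloid markers and 7 of 10 NK and CD8 T cell markers were lower at 24 h in wt, and the part of these shifts in the members' levels was not tested.

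Most members rose with stimulation in every genotype, by unequal amounts. In rescue cells 42 members rose and 3 fell (38.8% and 40.8% of all genes), in CD28-/- cells 40 rose and 4 fell (39.7% and 41.2%), in T1792tg/tg cells 41 rose and 3 fell (41% and 44.1%), and in T1792delta/delta cells 42 rose and 3 fell (41.4% and 43.7%). The median log2 change from naive to 24 h was 2.40 in rescue, 1.81 in CD28-/-, 3.06 in T1792tg/tg, 3.48 in T1792delta/delta and 3.45 in wt cells, while the median over all genes lay between -0.07 and -0.04 in these 5 comparisons. Pttg1, Cenpa and Smc4 fell in all 5 genotypes. In CD28-/- cells Kif23 fell as well, by 0.40 ± 0.15 on the log2 scale (edgeR adjusted p = 0.017), whereas in rescue cells it rose by 0.45 ± 0.17 (edgeR adjusted p = 0.018). The member that did not pass in CD28-/- cells was Ccnb2, which held 7.49, 4.44, 4.66 and 5.58 CPM at 24 h, against 8.54, 2.12, 2.34 and 2.41 CPM in naive libraries, where replicate 1, a library that stood apart, was the highest of the 8 (0.52 ± 0.33, edgeR adjusted p = 0.15). In T1792tg/tg cells it was again Ccnb2 that did not pass (0.55 ± 0.32, edgeR adjusted p = 0.11).

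**Figure D3:**
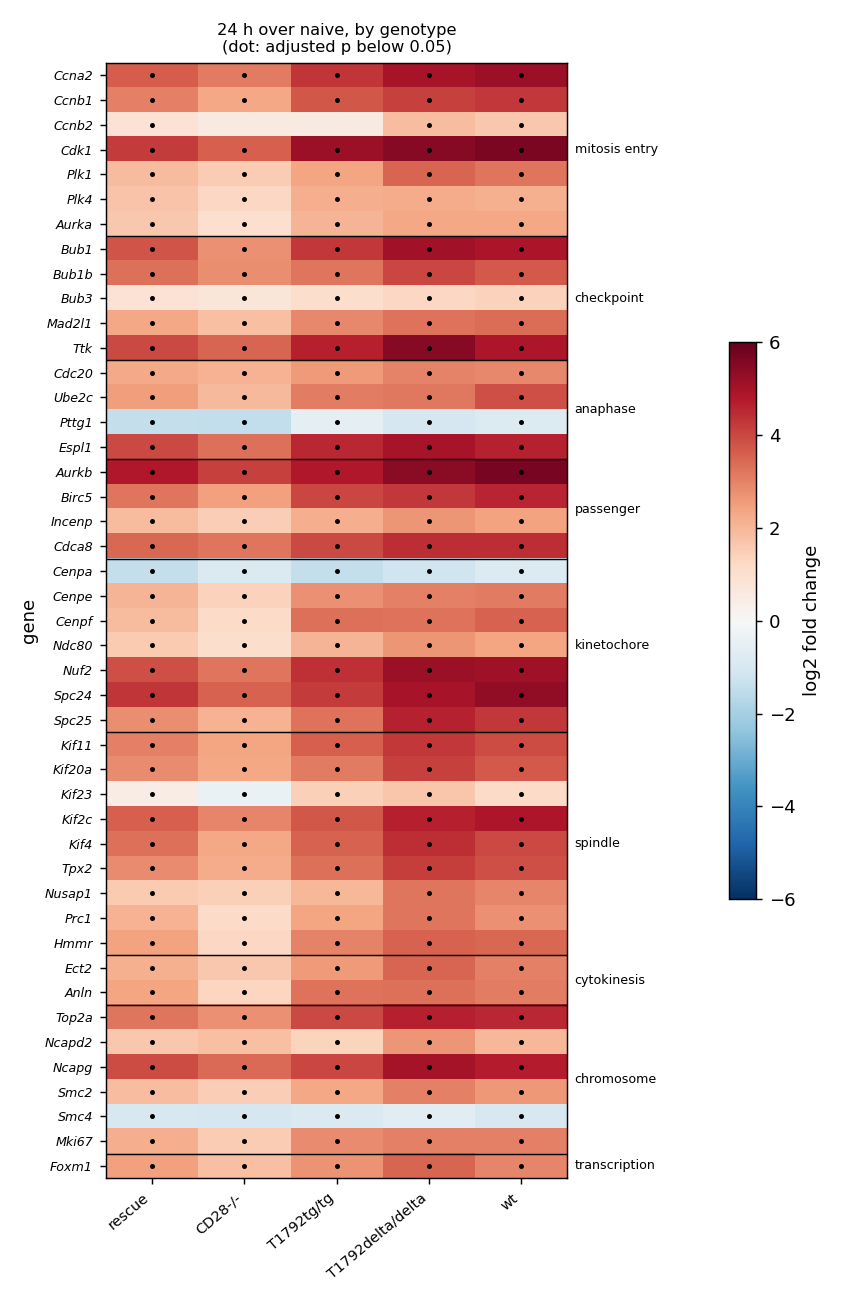
Log2 fold change from naive to 24 h for each of the 45 members (vertical axis, grouped by role) in rescue, CD28-/-, T1792tg/tg, T1792delta/delta and wt cells (horizontal axis), red for higher at 24 h and blue for lower, with a dot at an adjusted p below 0.05. The CD28-/- column is the palest of the 5, with a median of 1.81, and Pttg1, Cenpa and Smc4 are blue in all 5 columns.

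The size of the response was tested against wt. In CD28-/- cells the response was smaller for 41 members and larger for none (22.4% and 20.8% of all genes), with a median difference of -1.53 on the log2 scale. It was smaller by 2.16 ± 0.24 for Spc25 (edgeR adjusted p = 4.8e-09), by 1.53 ± 0.17 for Mad2l1 (edgeR adjusted p = 5.3e-09) and by 2.42 ± 0.54 for Cenpf, the member with the largest difference (edgeR adjusted p = 4.0e-04). The 4 members that did not pass were Ccnb2 (-1.10, edgeR adjusted p = 0.053), Ncapd2 (-0.19 ± 0.14, edgeR adjusted p = 0.27), Cenpa (-0.05) and Smc4 (-0.05). The count of 41 was 37 without naive CD28-/- replicate 1, which stood apart, the lowest count with 1 library left out. Naive levels enter these differences, and Spc25 and Mad2l1 were also higher in naive CD28-/- than in naive wt libraries, as given below. In T1792tg/tg cells the response was smaller for 6 members and larger for none (7.41% and 8.59% of all genes). At an unadjusted p below 0.05, 13 members differed, and the share of all genes at that level was not counted. The 6 were Ncapd2 (-0.68 ± 0.13, edgeR adjusted p = 7.7e-04), Spc25 (-0.96 ± 0.24, edgeR adjusted p = 0.0051), Cenpa (-0.61, edgeR adjusted p = 0.0068), Bub3 (-0.34), Aurkb (-0.88) and Spc24 (-1.14). That count was 3 without naive T1792tg/tg replicate 4 or without 24 h T1792tg/tg replicate 3, and 0 in female libraries alone, where a single T1792tg/tg library per state was left. In T1792delta/delta cells it was larger for 2 members, Ncapd2 (0.66 ± 0.14, edgeR adjusted p = 0.0026) and Foxm1 (0.56 ± 0.17, edgeR adjusted p = 0.044), and smaller for none (3.15% and 2.95% of all genes). Only 1 member was called without naive T1792delta/delta replicate 1, 2, 3 or 4, naive wt replicate 2 or 3, 24 h T1792delta/delta replicate 1, 3 or 4, or 24 h wt replicate 3 or 4. These comparisons share the wt libraries.

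At 24 h the members were broadly lower in the libraries labelled CD28-/- than in wt. Of the 45, 43 were lower and none higher, while 27.8% of all genes tested were lower and 23.7% higher. The median difference was -1.25 on the log2 scale, against -0.03 over all genes. The libraries did not overlap for 41 members, and the share of all genes without overlap was not counted. The entry genes (7 of 7 lower, median -1.64), the passenger complex (4 of 4, -1.35), the spindle genes (9 of 9, -1.35) and the cytokinesis genes (2 of 2, -1.30) had the largest differences. Kinetochore genes (6 of 7 lower, -1.28), anaphase genes (4 of 4, -1.11), checkpoint genes (5 of 5, -0.93), genes of chromosome structure (5 of 6, -0.92) and Foxm1 followed.

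Cdk1 held 66.3, 63.9, 60.1 and 59.4 CPM in 24 h CD28-/- libraries, against 207, 222, 193 and 159 CPM in 24 h wt libraries. The CD28-/- libraries were all low and close together, and the log2 difference was -1.64 ± 0.21 (edgeR adjusted p = 4.6e-08). Ube2c had the largest difference, with 10.7, 8.33, 7.63 and 8.6 CPM in CD28-/- libraries, against 43, 50.5, 37.7 and 29.4 CPM in wt libraries. No library overlapped, and the log2 difference was -2.19 ± 0.29 (edgeR adjusted p = 9.7e-08). The smallest p belonged to Incenp, which held 69.3, 61, 57.6 and 59.3 CPM in CD28-/- libraries, against 144, 149, 136 and 107 CPM in wt libraries (-1.11 ± 0.09, edgeR adjusted p = 6.2e-13). Its kinase partner Aurkb was at 38.9, 36.5, 35.6 and 33.9 CPM in CD28-/- libraries, against 116, 125, 104 and 85.3 CPM in wt libraries (-1.57 ± 0.16, edgeR adjusted p = 2.3e-10). Birc5 and Ccna2 differed by -1.85 and -1.80.

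Bub1 had the largest difference of the checkpoint group (-1.51) and Mad2l1 the smallest p. Mad2l1 held 63.3, 62.2, 64.2 and 61.7 CPM in CD28-/- libraries, against 139, 145, 132 and 120 CPM in wt libraries (-1.09 ± 0.11, edgeR adjusted p = 4.9e-10). Spc25, of the Ndc80 complex, held 15.9, 12.3, 14.3 and 14.3 CPM in CD28-/- libraries, against 38.1, 45.2, 39.1 and 31.6 CPM in wt libraries (-1.44 ± 0.14, edgeR adjusted p = 1.7e-10). Both genes were low in each CD28-/- library and did not overlap wt. Kif23, the central spindle motor, held 17.6, 17.1, 16.8 and 17.3 CPM in CD28-/- libraries, against 48, 55, 44.8 and 35.8 CPM in wt libraries (-1.41 ± 0.15, edgeR adjusted p = 1.2e-09). Ect2, its partner in cytokinesis, held 20.6, 20, 21 and 17.7 CPM in CD28-/- libraries, against 45.1, 47, 43.6 and 35.4 CPM in wt libraries (-1.11 ± 0.13, edgeR adjusted p = 6.3e-09). Again the lowest wt library, replicate 4, was above every CD28-/- library. Top2a held 340, 284, 297 and 274 CPM in CD28-/- libraries, against 740, 803, 694 and 546 CPM in wt libraries (-1.22 ± 0.17, edgeR adjusted p = 2.8e-07). Foxm1 held 36.1, 33.4, 29.3 and 27.2 CPM in CD28-/- libraries, against 71.4, 73.4, 67 and 52.2 CPM in wt libraries (-1.07 ± 0.11, edgeR adjusted p = 9.9e-10). Neither gene overlapped between the groups.

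The smallest called differences were those of Ncapd2, a condensin subunit (-0.35 ± 0.09, edgeR adjusted p = 0.0021), and Bub3 (-0.36 ± 0.07, edgeR adjusted p = 1.3e-04). Pttg1 was lower too, at 11, 11.4, 11.7 and 13.9 CPM in CD28-/- libraries, against 19.2, 20.1, 20.3 and 20.4 CPM in wt libraries (-0.73 ± 0.11, edgeR adjusted p = 7.1e-07), although stimulation lowers it in both. The 2 members that did not pass were Cenpa and Smc4, which also fall with stimulation. Cenpa held 30, 29.7, 26.4 and 28 CPM in CD28-/- libraries, against 30.8, 31.7, 25.9 and 23.9 CPM in wt libraries, fully overlapping (0.02 ± 0.11, edgeR adjusted p = 0.89). Smc4 held 445, 132, 395 and 372 CPM in CD28-/- libraries, against 233, 420, 407 and 370 CPM in wt libraries (-0.09 ± 0.21, edgeR adjusted p = 0.75). Its lowest value in each group came from a library named above as low in long transcripts, although Smc4, at 4120 bases, ranked 21 of 45 by length. Without CD28-/- replicate 2 the difference turned to 0.18.

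Among the other lists, 78 of the 107 further mitosis genes were lower and 6 higher in CD28-/- than in wt (median -0.61), with Cenpi, a centromere subunit, at -1.43 ± 0.11 (edgeR adjusted p = 1.7e-12) and Gtse1, a microtubule binder of G2, at -1.42 ± 0.11 (edgeR adjusted p = 1.3e-12). Of the 40 replication genes 35 were lower and none higher (median -0.60), with the smallest p for Orc6, an origin recognition subunit (-1.16 ± 0.08, edgeR adjusted p = 7.2e-14). Among the 12 DREAM and MuvB genes 6 were lower and 3 higher, with Mybl2 at -1.01 ± 0.15 (edgeR adjusted p = 5.9e-07) and Rbl2 at 1.06 ± 0.08 (edgeR adjusted p = 7.7e-13). Of the 18 G1 genes 13 were lower and 2 higher. The count of 43 members held under every alternative listed under the processing, a term for sex and female libraries alone included. At 24 h the CD4 T cell markers were higher in CD28-/- (10 of 12; sums of between 5337 and 5944 CPM in CD28-/- and between 3722 and 4407 CPM in wt), as were 4 of 10 B cell markers (sums of between 104 and 144 CPM in CD28-/- and between 43.8 and 108 CPM in wt). Lower in CD28-/- were 6 of 13 memory T cell markers, with 2 higher (sums of between 380 and 399 CPM in CD28-/- and between 680 and 781 CPM in wt), and 7 of 10 regulatory T cell markers, with 2 higher (between 1139 and 1198 CPM in CD28-/- and between 1463 and 1508 CPM in wt). No B cell marker was at 0 in either group, and the part of these shifts in the result was not tested. Some of these markers change with stimulation itself. From naive to 24 h wt libraries, mean Il2ra went from 15.4 to 641 CPM, Tnfrsf4 from 18.5 to 412 CPM and Tbx21 from 3.16 to 117 CPM. Foxp3 went from 21.7 to 9.42 CPM. The sums of memory, regulatory, NK and CD8 T cell markers at 24 h, here and below, therefore do not measure shares of cell types.

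With the transgene on the CD28-/- background most members lay between the CD28-/- and the wt level. In rescue against CD28-/- libraries at 24 h, 30 members were higher and 1 lower, while 9.52% of all genes tested were higher and 8.86% lower. The median difference was 0.62 on the log2 scale, against 0.01 over all genes. The libraries did not overlap for 39 members, again without a share counted over all genes. Cytokinesis genes (2 of 2 higher, median 0.83), spindle genes (7 of 9, 0.80) and the passenger complex (4 of 4, 0.78) had the largest median differences, followed by entry genes (5 of 7, 0.67), anaphase genes (2 of 4, 0.63) and checkpoint genes (4 of 5, 0.58). Of the genes of chromosome structure 2 of 6 were higher (0.55) and of the kinetochore genes 3 of 7 (0.54). Summed over the members without Smc4, the level was 2984 ± 459 CPM in rescue (n = 3) and 1923 ± 215 CPM in CD28-/- libraries (n = 4; SD).

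Aurkb held 59.6, 80.2 and 71.5 CPM in rescue libraries, against 38.9, 36.5, 35.6 and 33.9 CPM in CD28-/- libraries. All 3 rescue libraries were higher, by 0.96 ± 0.16 on the log2 scale (edgeR adjusted p = 5.4e-05). Incenp held 82.2, 99.5 and 96.3 CPM in rescue, against 69.3, 61, 57.6 and 59.3 CPM in CD28-/- libraries (0.58 ± 0.09, edgeR adjusted p = 1.4e-05), the smallest p among the members. Foxm1 held 48.4, 55.2 and 51.7 CPM in rescue, against 36.1, 33.4, 29.3 and 27.2 CPM in CD28-/- libraries (0.72 ± 0.12, edgeR adjusted p = 4.1e-05). None of the 3 genes overlapped between the groups. The largest rise was that of Anln, with 10.3, 16.3 and 12.4 CPM in rescue, against 7.45, 6.25, 5.82 and 4.72 CPM in CD28-/- libraries (1.10 ± 0.23, edgeR adjusted p = 7.5e-04). Cdk1 held 93.5, 137 and 115 CPM in rescue, against 66.3, 63.9, 60.1 and 59.4 CPM in CD28-/- libraries (0.88 ± 0.22, edgeR adjusted p = 0.0039). Replicate 2 was the highest rescue library for each of these genes.

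Plk4 held 47, 61.3 and 52.8 CPM in rescue, against 39.8, 36.3, 37.6 and 32 CPM in CD28-/- libraries (0.56 ± 0.11, edgeR adjusted p = 3.7e-04). Mad2l1 held 79.9, 102 and 96.1 CPM in rescue, against 63.3, 62.2, 64.2 and 61.7 CPM in CD28-/- libraries (0.56 ± 0.12, edgeR adjusted p = 8.0e-04). Kif11 held 86.8, 128 and 107 CPM in rescue, against 73.9, 55.5, 58.8 and 55.8 CPM in CD28-/- libraries (0.81 ± 0.18, edgeR adjusted p = 0.0014). In each of these the rescue libraries lay above all CD28-/- libraries. Top2a held 455, 633 and 532 CPM in rescue, against 340, 284, 297 and 274 CPM in CD28-/- libraries (0.85 ± 0.18, edgeR adjusted p = 7.8e-04). Espl1, separase, held 50.6, 58.3 and 52.2 CPM in rescue, against 31.9, 31.1, 31.6 and 27.5 CPM in CD28-/- libraries (0.81 ± 0.20, edgeR adjusted p = 0.0034). Ndc80 held 35.6, 43 and 40.9 CPM in rescue, against 31.7, 26.1, 29.4 and 29.3 CPM in CD28-/- libraries (0.45 ± 0.12, edgeR adjusted p = 0.0058). The same separation held for these 3.

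Pttg1 was the member that went down. It held 8.96, 8.71 and 8.85 CPM in rescue, against 11, 11.4, 11.7 and 13.9 CPM in CD28-/- libraries, a difference of -0.44 ± 0.12 (edgeR adjusted p = 0.0086), and the rescue libraries were tight and all lower. Separase and its inhibitor securin therefore differed in opposite directions between these genotypes. Among the 14 members that did not pass were Ncapd2 (0.24), Bub3 (0.13), Cenpa (-0.25 ± 0.12, edgeR adjusted p = 0.15), Smc4 (0.12 ± 0.23, edgeR adjusted p = 0.79) and Mki67 (0.69 ± 0.35, edgeR adjusted p = 0.18). Mki67 held 197, 317 and 178 CPM in rescue, against 223, 49.7, 154 and 147 CPM in CD28-/- libraries, with CD28-/- replicate 2 far below the others and the rest overlapping.

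Of the 107 further mitosis genes 48 were higher and 1 lower in rescue than in CD28-/- (median 0.38), with Cenpi higher by 0.90 ± 0.12 (edgeR adjusted p = 1.2e-06). Of the 40 replication genes 14 were higher and none lower (median 0.25), with Orc6 at 0.50 ± 0.09. Rbl2 was lower (-0.86 ± 0.09, edgeR adjusted p = 1.1e-08), Mybl2 higher (0.73 ± 0.16, edgeR adjusted p = 9.3e-04) and Cdc25a, the phosphatase that activates cyclin-dependent kinases, higher (0.62 ± 0.07, edgeR adjusted p = 1.4e-07). Without rescue replicate 2, 11 of the 45 members were called, 10 higher and 1 lower. All libraries of both groups were female. Memory T cell markers were higher in 8 of 13 and lower in 2 (sums of between 598 and 796 CPM in rescue and between 380 and 399 CPM in CD28-/- libraries) and 3 of 10 NK and CD8 T cell markers were higher (between 64.7 and 77.8 CPM in rescue and between 36.1 and 38.5 CPM in CD28-/-). Within the NK and CD8 list, mean Eomes was at 33.6 CPM in rescue and 8.84 CPM in CD28-/-, and mean Cd8a at 7.14 and 6.54 CPM in that order. The part of these shifts was not tested, and an effect of CD4cre, which rescue mice carry and CD28-/- mice lack, cannot be told apart from that of the transgene.

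**Figure D4:**
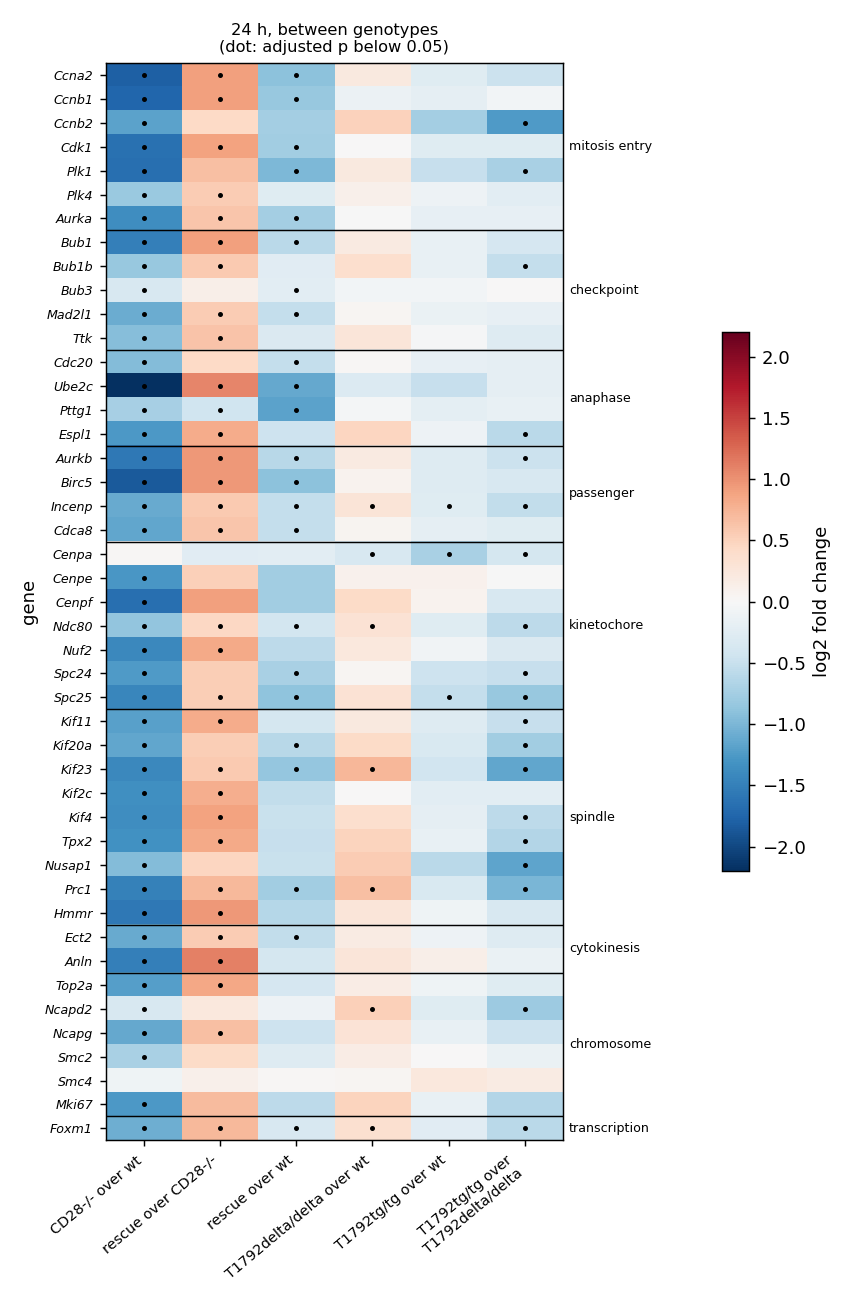
Log2 difference at 24 h for each of the 45 members (vertical axis, by role) in 6 comparisons of genotypes (horizontal axis), red for higher and blue for lower in the genotype named first, with a dot at an adjusted p below 0.05. The CD28-/- over wt column is blue for nearly all members (median -1.25), the rescue over CD28-/- column is mostly red (0.62) and the rescue over wt column is a paler blue (-0.55).

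Rescue libraries did not reach the wt level for many members. Against wt, 23 members were lower and none higher, while 17.7% of all genes tested were lower and 17.4% higher. The median difference was -0.55, against -0.02 over all genes. Lower were 5 of 7 entry genes, 3 of 5 checkpoint genes, 3 of 4 anaphase genes, 4 of 4 passenger genes, 3 of 7 kinetochore genes, 3 of 9 spindle genes, 1 of 2 cytokinesis genes and Foxm1, and none of the 6 genes of chromosome structure. Pttg1 had the largest difference, with 8.96, 8.71 and 8.85 CPM in rescue, against 19.2, 20.1, 20.3 and 20.4 CPM in wt libraries (-1.18 ± 0.12, edgeR adjusted p = 2.2e-09). Ube2c held 13.6, 24.1 and 17.9 CPM in rescue, against 43, 50.5, 37.7 and 29.4 CPM in wt libraries (-1.12 ± 0.30, edgeR adjusted p = 0.004). Spc25 held 17.3, 23.5 and 21.3 CPM in rescue, against 38.1, 45.2, 39.1 and 31.6 CPM in wt libraries (-0.89 ± 0.15, edgeR adjusted p = 1.6e-05). These 3 genes did not overlap. Incenp (-0.53 ± 0.09, edgeR adjusted p = 2.6e-05) and Kif23 (-0.85 ± 0.16, edgeR adjusted p = 9.6e-05) were lower as well. Top2a overlapped, with 455, 633 and 532 CPM in rescue, against 740, 803, 694 and 546 CPM in wt libraries (-0.37 ± 0.18, edgeR adjusted p = 0.12). At an unadjusted p below 0.05, 34 members differed, with no share of all genes counted at that level. The count of called members was 11 without rescue replicate 1 and 15 without wt replicate 2. All rescue libraries were female and 1 of the 4 wt libraries was male.

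The response to stimulation, tested between rescue and CD28-/-, was larger for 6 members and smaller for 1 (6.96% and 5.84% of all genes), with a median difference of 0.53. Larger were Kif23 (0.85 ± 0.23, edgeR adjusted p = 0.013), Foxm1 (0.64 ± 0.18, edgeR adjusted p = 0.02), Incenp (0.43), Spc25 (0.74), Prc1 (0.90) and Anln (1.11), and smaller was Cenpa (-0.55 ± 0.17, edgeR adjusted p = 0.026). The median difference was 0.25 without naive CD28-/- replicate 1 and 0.88 without naive rescue replicate 2, the libraries that stood apart. The count rested on few libraries as well. It was 0 without 24 h rescue replicate 2, between 2 and 4 without naive rescue replicate 1 or 3, 24 h CD28-/- replicate 2, 3 or 4 or 24 h rescue replicate 3, 12 without 24 h rescue replicate 1 and 16 without naive rescue replicate 2.

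The transgene was also tested with CD28 present. T1792tg/tg libraries at 24 h differed from wt in 3 members, all lower and none higher, while 6.45% of all genes tested were lower and 6.1% higher. The median difference was -0.20, against -0.01 over all genes. Cenpa held 18.3, 20.7, 15.6 and 13.5 CPM in T1792tg/tg, against 30.8, 31.7, 25.9 and 23.9 CPM in wt libraries, all lower (-0.72 ± 0.11, edgeR adjusted p = 2.8e-05). Spc25 held 27.1, 30.5, 25 and 25 CPM in T1792tg/tg, against 38.1, 45.2, 39.1 and 31.6 CPM in wt libraries (-0.52 ± 0.14, edgeR adjusted p = 0.0097). Incenp was lower too (-0.27 ± 0.08, edgeR adjusted p = 0.031), with 106, 123, 108 and 108 CPM in T1792tg/tg, against 144, 149, 136 and 107 CPM in wt libraries, where wt replicate 4 overlapped. Kif23 (-0.42 ± 0.15) and Ncapd2 (-0.27 ± 0.09) just missed the threshold, both at an edgeR adjusted p of 0.051. At an unadjusted p below 0.05, 11 members differed, with no share of all genes counted at that level. The count of called members was 5 without T1792tg/tg replicate 2, 6 without wt replicate 4 and 1 without wt replicate 2. In female libraries alone, with a single T1792tg/tg library left, 1 member was called. Memory T cell markers were higher in T1792tg/tg in 8 of 13 and lower in none (sums of between 1103 and 1221 CPM in T1792tg/tg and between 680 and 781 CPM in wt), and 5 of 10 NK and CD8 T cell markers were higher and none lower (between 63.6 and 82.7 CPM in T1792tg/tg and between 38.9 and 52.1 CPM in wt). Their part in the result was not tested.

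The difference between the transgene's 2 contrasts was itself tested. Its contrast, rescue over CD28-/- minus T1792tg/tg over wt, was above 0 in 17 members and below 0 in none, while 1.33% of all genes tested were above 0 and 0.784% below. The median was 0.93, against 0.02 over all genes, and single members ran between -0.23 and 1.57. The 17 came from every role group: 3 entry genes (Cdk1, Aurka and Plk4), 2 checkpoint genes (Mad2l1 and Bub1), Ube2c, 2 passenger genes (Incenp and Aurkb), 2 kinetochore genes (Spc25 and Ndc80), 3 spindle genes (Kif23, Kif11 and Prc1), Ect2, 2 genes of chromosome structure (Top2a and Ncapd2) and Foxm1. For Incenp the 2 contrasts were 0.58 on the CD28-/- background and -0.27 with CD28, a difference of 0.85 ± 0.12 (edgeR adjusted p = 9.3e-05). For Foxm1 they were 0.72 on the CD28-/- background and -0.25 with CD28, a difference of 0.96 ± 0.16 (edgeR adjusted p = 6.8e-04). For Aurkb they were 0.96 and -0.29 in that order, a difference of 1.25 ± 0.22 (edgeR adjusted p = 0.0013). Each of the 3 was higher in rescue than in CD28-/- libraries by its own test, and of their differences with CD28 present that of Incenp passed while those of Foxm1 and Aurkb did not.

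Ube2c had the largest difference of the contrasts, 1.57 ± 0.41 (edgeR adjusted p = 0.031), followed among the called members by Aurkb (1.25), Cdk1 (1.15 ± 0.30, edgeR adjusted p = 0.031) and Kif11 (1.10 ± 0.25, edgeR adjusted p = 0.01). Pttg1 (-0.23 ± 0.16, edgeR adjusted p = 0.57) and Smc4 (-0.11 ± 0.31, edgeR adjusted p = 0.94) were at the other end and did not pass. At an unadjusted p below 0.05, 38 members differed, and the share of all genes at that level was not counted. Of the 107 further mitosis genes 25 were above 0 and none below (median 0.48), and of the 40 replication genes 5 were above 0 and none below (median 0.42). This contrast rests on 4 groups, and its count was 4 without rescue replicate 2, 8 without rescue replicate 3, 9 without CD28-/- replicate 2 or 4, T1792tg/tg replicate 3 or wt replicate 1 or 2, 10 without CD28-/- replicate 3 or T1792tg/tg replicate 4, and 11 without wt replicate 3. It was 9 with a term for sex, 11 with a replicate block over all groups, 6 without the 3 libraries low in long transcripts, 1 in female libraries alone and 36 in a fit on the compared groups alone.

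**Figure D5:**
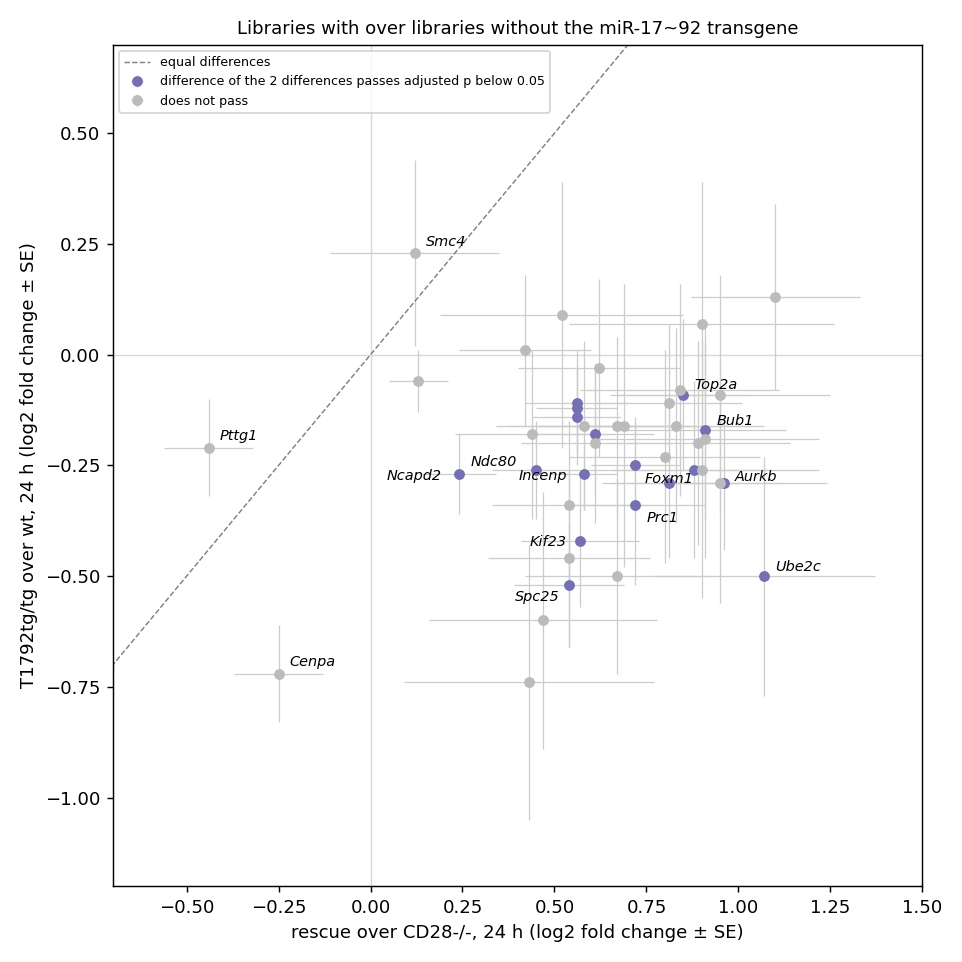
Each of the 45 members by its log2 difference at 24 h between rescue and CD28-/- cells (horizontal axis) and between T1792tg/tg and wt cells (vertical axis), with bars of ± SE and a dashed line where both are equal; violet points are the 17 members for which the difference of the 2 contrasts passed and grey points the others. Most members lie right of 0 on the horizontal axis and below 0 on the vertical axis, while Pttg1 and Cenpa lie left of 0.

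The 2 genotypes that alter miR-17~92 with CD28 present, which both carry CD4cre, were set against each other at 24 h. In T1792tg/tg against T1792delta/delta libraries 19 members were lower and none higher, while 17.4% of all genes tested were lower and 16.6% higher. The median difference was -0.37, against 0.00 over all genes. Lower were 7 of 9 spindle genes, with a median of -0.65, 4 of 7 kinetochore genes, 2 of 4 passenger genes, 2 of 7 entry genes, 1 of 5 checkpoint genes, 1 of 4 anaphase genes, 1 of 6 genes of chromosome structure and Foxm1. Neither cytokinesis gene passed.

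Kif23 held 31, 38.5, 32.9 and 34.6 CPM in T1792tg/tg, against 78.3, 62.2, 82.1 and 82.4 CPM in T1792delta/delta libraries. The groups lay far apart, and the log2 difference was -1.15 ± 0.15 (edgeR adjusted p = 1.1e-07). Its partner in the central spindle, Prc1, held 31, 34, 27.8 and 29.1 CPM in T1792tg/tg, against 58, 49.9, 70.9 and 66.5 CPM in T1792delta/delta libraries (-1.01 ± 0.18, edgeR adjusted p = 2.4e-05). Nusap1, a microtubule binder near chromosomes, held 25.8, 28, 20.3 and 20.3 CPM in T1792tg/tg, against 47.8, 54.6, 47.4 and 61.8 CPM in T1792delta/delta libraries (-1.16 ± 0.29, edgeR adjusted p = 0.0018). None of these overlapped. Ncapd2 held 144, 176, 159 and 163 CPM in T1792tg/tg, against 286, 266, 292 and 276 CPM in T1792delta/delta libraries (-0.80 ± 0.09, edgeR adjusted p = 2.3e-08), the smallest p among the members. Ccnb2 had the largest difference, with 8.33, 9.1, 7.17 and 5.12 CPM in T1792tg/tg, against 15.7, 17, 18.3 and 19.7 CPM in T1792delta/delta libraries (-1.25 ± 0.31, edgeR adjusted p = 0.0015). Both were separate in all 8 libraries.

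Among the rest, Incenp held 106, 123, 108 and 108 CPM in T1792tg/tg, against 159, 146, 180 and 168 CPM in T1792delta/delta libraries (-0.55 ± 0.08, edgeR adjusted p = 2.8e-06). Spc25 held 27.1, 30.5, 25 and 25 CPM in T1792tg/tg, against 47.2, 44, 44.7 and 54.9 CPM in T1792delta/delta libraries (-0.83 ± 0.14, edgeR adjusted p = 1.0e-05). Foxm1 held 54.5, 63, 48.9 and 56.2 CPM in T1792tg/tg, against 86, 78.8, 84.6 and 88.8 CPM in T1792delta/delta libraries (-0.60 ± 0.11, edgeR adjusted p = 5.1e-05). All T1792tg/tg libraries were lower for each of the 3. Ndc80 (-0.57 ± 0.11, edgeR adjusted p = 8.9e-05), Espl1 (-0.59 ± 0.18, edgeR adjusted p = 0.011) and Bub1b (-0.53 ± 0.19, edgeR adjusted p = 0.027) were lower too. Mki67 held 295, 314, 293 and 336 CPM in T1792tg/tg, against 608, 561, 258 and 510 CPM in T1792delta/delta libraries, where replicate 3, low in long transcripts, overlapped, and it did not pass (-0.65 ± 0.32, edgeR adjusted p = 0.13).

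Set against wt, T1792delta/delta libraries had 6 members higher and 1 lower (7.77% and 8.47% of all genes; median 0.21, against -0.00 over all genes). Higher were Kif23 (0.73 ± 0.14, edgeR adjusted p = 5.3e-04), Prc1 (0.67 ± 0.17, edgeR adjusted p = 0.007), Ncapd2 (0.53 ± 0.09, edgeR adjusted p = 1.3e-04), Foxm1 (0.36 ± 0.11, edgeR adjusted p = 0.023), Ndc80 (0.31 ± 0.11, edgeR adjusted p = 0.046) and Incenp (0.29 ± 0.08, edgeR adjusted p = 0.017). Kif23 held 78.3, 62.2, 82.1 and 82.4 CPM in T1792delta/delta, against 48, 55, 44.8 and 35.8 CPM in wt libraries, and Ncapd2 held 286, 266, 292 and 276 CPM in T1792delta/delta, against 205, 212, 198 and 161 CPM in wt libraries. Neither overlapped. Cenpa was lower, with 19.3, 19.7, 24.2 and 25.3 CPM in T1792delta/delta, against 30.8, 31.7, 25.9 and 23.9 CPM in wt libraries (-0.35 ± 0.11, edgeR adjusted p = 0.03), where 2 of the T1792delta/delta libraries lay above the lowest wt library. It was lower than wt in T1792tg/tg libraries as well. The comparisons of T1792tg/tg and T1792delta/delta with wt share the wt libraries. The count of 7 was 4 without T1792delta/delta replicate 1 or without wt replicate 4. At an unadjusted p below 0.05, 11 members differed, with no share of all genes counted at that level.

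Memory T cell markers were higher in T1792tg/tg than in T1792delta/delta libraries in 9 of 13 and lower in none (sums of between 1103 and 1221 CPM in T1792tg/tg and between 510 and 647 CPM in T1792delta/delta), and 4 of 10 NK and CD8 T cell markers were higher and 1 lower (between 63.6 and 82.7 CPM in T1792tg/tg and between 28.4 and 45.2 CPM in T1792delta/delta). Their part in the result was not tested. Of the 107 further mitosis genes 46 were lower and 7 higher in T1792tg/tg (median -0.25), with the kinase gene Mastl at -0.98 ± 0.15 (edgeR adjusted p = 2.2e-06). Of the 40 replication genes 18 were lower and 1 higher (median -0.21), with Mcm3 at -0.51 ± 0.06 (edgeR adjusted p = 8.0e-09). E2f1 (-0.76 ± 0.08, edgeR adjusted p = 3.2e-09) and Rbl2 (-1.0 ± 0.08, edgeR adjusted p = 2.1e-11) were lower as well. In female libraries alone, 1 of T1792tg/tg and 2 of T1792delta/delta, 4 members were called.

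The microRNAs of the cluster are shown because the T1792 genotypes are built to alter them, although mature microRNAs were not analysed here; the seed, bases 2 to 8, is in capitals, and the sequences are those of RefSeq on the plus strand of GRCm38.p6. miR-17 and miR-20a share a seed, as do miR-19a and miR-19b, while miR-18a and miR-92a each have their own.
mmu-miR-17-5p (chr14:115043684-115043706): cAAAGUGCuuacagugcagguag
mmu-miR-20a-5p (chr14:115044183-115044205): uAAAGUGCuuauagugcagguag
mmu-miR-18a-5p (chr14:115043867-115043889): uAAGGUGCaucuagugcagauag
mmu-miR-19a-3p (chr14:115044048-115044070): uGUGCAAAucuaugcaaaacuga
mmu-miR-19b-3p (chr14:115044358-115044380): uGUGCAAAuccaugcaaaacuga
mmu-miR-92a-3p (chr14:115044476-115044496): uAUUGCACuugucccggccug
A match to a seed (7 bases, complementary to bases 2 to 8) was present in the longest annotated 3′ UTR of 13 of the 45 members, 28.9%, against 29.1% of 20815 genes with such a UTR. The 2 shares are not like for like, since the median 3′ UTR was 606 bases among the members and 976 bases among all genes. The matches of 4 members with called differences between T1792tg/tg and T1792delta/delta are shown, with the match in capitals and its position on GRCm38 (GENCODE vM21).
Kif23, miR-17/20a (chr9:61917436-61917442, minus strand): aaaaaaatGCACTTTagacatat
Prc1, miR-92a (chr7:80315872-80315878, plus strand): tttctgtaGTGCAATttcttgag
Prc1, miR-19 (chr7:80316042-80316048, plus strand): tcagcaacTTTGCACatctacaa
Nusap1, miR-18a (chr2:119651161-119651167, plus strand): cctcaggaGCACCTTaggcaata
Foxm1, miR-17/20a (chr6:128374371-128374377, plus strand): acggggttGCACTTTgcttctgc
The other members with a match were Anln, Bub3, Ccna2, Hmmr, Kif2c, Mad2l1, Smc2, Spc24 and Tpx2. The matches of Nusap1 and Mad2l1 lie past the end of the gene as the reference annotation bounds it. Between T1792tg/tg and T1792delta/delta, 6 of the 13 members with a match and 13 of the 32 without one were lower, and the median differences were -0.47 with a match and -0.36 without. A match of letters does not show that a site is used, and Ncapd2, Ccnb2, Incenp and Spc25, which differed between these genotypes, had none.

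Before culture the members differed little between genotypes. In naive CD28-/- against wt libraries 5 members were higher and none lower (7.42% and 7.34% of all genes; median 0.23), namely Spc25 (0.72 ± 0.19, edgeR adjusted p = 0.01), Top2a (0.57), Ndc80 (0.45), Mad2l1 (0.44 ± 0.13, edgeR adjusted p = 0.017) and Bub3 (0.30). Without naive CD28-/- replicate 1 the median turned to -0.10 with 4 members called, all higher, and in female libraries alone 3 were called. In T1792tg/tg against wt, 2 were higher and 2 lower (10.5% and 12.6% of all genes; median 0.28). Ncapd2 held 60.9, 59.5, 61.7 and 74.7 CPM in naive T1792tg/tg, against 43.1, 50.9, 53.1 and 46.6 CPM in naive wt libraries (0.41 ± 0.10, edgeR adjusted p = 0.0023), so it was higher before stimulation, and at 24 h it did not pass. Kif23 held 10.6, 12.5, 10.5 and 16.9 CPM in naive T1792tg/tg, against 20.3, 25.2, 22.7 and 14.3 CPM in naive wt libraries (-0.71 ± 0.16, edgeR adjusted p = 0.0011), and Pttg1 was lower too (-0.43 ± 0.10, edgeR adjusted p = 0.0027), while Bub3 was higher (0.28). T1792delta/delta naive libraries differed from wt in 0 members (2.76% of all genes higher and 2.42% lower; median 0.07). For that comparison edgeR gave 0 members at an unadjusted p below 0.05 as well, and DESeq2 called 0; the members ran between -0.33 and 0.68. Red cell markers without Tfrc summed to between 1191 and 5247 CPM in naive T1792delta/delta and between 329 and 979 CPM in naive wt libraries, and myeloid markers to between 250 and 338 CPM in T1792delta/delta and between 170 and 225 CPM in wt. Regulatory T cell markers summed to between 248 and 251 CPM in naive CD28-/-, between 276 and 316 CPM in naive rescue and between 359 and 398 CPM in naive wt. Memory T cell markers summed to between 494 and 604 CPM in naive T1792tg/tg, between 454 and 590 CPM in naive rescue and between 398 and 405 CPM in naive wt. The part of all these markers in the members' naive levels was not tested.

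In naive rescue libraries 5 members were higher and 1 lower than in wt (12.5% and 13.6% of all genes; median 0.31). Top2a held 46.6, 89.6 and 41.4 CPM in naive rescue, against 28.3, 33.1, 35.1 and 24.9 CPM in naive wt libraries (0.96 ± 0.19, edgeR adjusted p = 2.5e-04), with replicate 2, which stood apart, the highest. Mad2l1 (0.50), Ndc80 (0.40), Cenpa (0.37) and Bub3 (0.29) were higher and Pttg1 lower (-0.55 ± 0.11, edgeR adjusted p = 4.8e-04). Against naive CD28-/- libraries, rescue differed in 1 member higher, Ncapd2 (0.43 ± 0.10, edgeR adjusted p = 0.0043), and 1 lower, Pttg1 (-0.50 ± 0.11, edgeR adjusted p = 0.0022; 7.84% and 8.92% of all genes). Pttg1 held 24.9, 24.6 and 22.7 CPM in naive rescue, against 32.7, 35.1, 32.2 and 35.6 CPM in naive CD28-/- libraries, so securin was lower in rescue cells both before and after stimulation. The naive counts moved with single libraries. Rescue against wt gave 3 with a median of 0.02 without naive rescue replicate 2, and 10 without replicate 1 (median 0.52) or without replicate 3 (median 0.41). Rescue against CD28-/- gave 9 without naive CD28-/- replicate 1, which stood apart, and T1792tg/tg against wt gave 7 without naive wt replicate 3. Naive comparisons with wt share the wt libraries.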

How the data were processed

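RNA of 38 libraries of mouse CD4 T cells was sequenced as single-end reads of 76 nt from stranded polyA libraries, per the labels' protocols. The submitters' processing notes name FastQC 0.11.5, STAR 2.5.2a, R 3.5, edgeR 3.24.3 and the build mm10; the counting tool, its annotation and its strand setting were not given in the sources used. The authors deposited raw read counts per gene, not normalised, with a length per gene that was used for levels per kilobase. Symbols were found for 23968 of the 24028 gene IDs; IDs without one took 0.0749% of counts.

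Counts were analysed in R 4.3.3 with edgeR 4.0.16 (filterByExpr over the 10 groups, TMM scaling, quasi-likelihood test, 1 coefficient per group, 38 libraries in every fit), which tested 13650 genes, or 56.8% of the table, in 21 comparisons. Log2 fold changes carry standard errors taken from the test statistic, and Benjamini-Hochberg adjustment ran over all genes tested. DESeq2 1.42.0 was an alternative. A library of 19.4 M to 28 M counts leaves members at a few CPM with the widest errors. Libraries came from single mice, so p-values measure the spread between these mice. No libraries of 1 group were copies of each other (lowest chi-square per degree of freedom 5.48).

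The rule for the members holds gene symbols and no values, but the members and gene lists were chosen with earlier results of these data known. Values per library are given for members with the smallest p in their role group, the largest or smallest change, or a call against the trend; of the other lists at most 4 genes per comparison were eligible. The labels tie no replicate numbers to mice or days. Deviations of naive and 24 h libraries with the same number correlated above 0.1 in every pair of wt (0.12 to 0.34) and T1792delta/delta (0.21 to 0.31). In the other genotypes only some pairs did (0.03 to 0.11 in CD28-/-, 0.03 to 0.17 in rescue, 0.03 to 0.25 in T1792tg/tg). The same-numbered naive library was the closest of its genotype except for 24 h CD28-/- replicate 2, rescue replicate 1 and T1792tg/tg replicate 1. Sex was the same within every such pair. The reported fits took naive and 24 h libraries as independent, and the replicate block within genotype was an alternative. Same-numbered libraries of different genotypes had a median correlation of -0.02 (naive) and 0.01 (24 h).

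Alternatives were size factors by RLE, DESeq2, no filter, a filter at 5 CPM, a fit on the compared groups alone, a replicate block over all groups or within genotype, a term for sex, the 2 naive libraries that stood apart left out, and each library left out. Chosen after seeing the data were female libraries alone and 3 libraries low in long transcripts left out together.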

Additional observations from a re-analysis of the deposited data

Results flagged for a closer look

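Naive CD28-/- replicate 1 lay far above the other 3 naive CD28-/- libraries for 8 of the members examined. It held 9.29 CPM of Cdk1, 4.73 CPM of Ube2c, 81.9 CPM of Mki67, 63.8 CPM of Top2a, 9.11 CPM of Prc1, 8.54 CPM of Ccnb2, 13.6 CPM of Nusap1 and 4.38 CPM of Anln. Its level summed over the members without Smc4 was 766 CPM, again far from the other 3. By a gap of over 1 on the log2 scale 16 members and 174 genes in all stood above the group's other libraries in it, among the members also the passenger genes Birc5 and Cdca8 and the kinetochore genes Nuf2 and Spc24. It also held the most red cell, B cell and myeloid marker counts of its group, whose part was not tested.

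Single libraries of other groups stood apart for 5 genes. Incenp at 123 CPM and Kif11 at 133 CPM were high in 24 h T1792tg/tg replicate 2, and Top2a at 24.1 CPM was low in naive T1792delta/delta replicate 4. Ncapd2 at 74.7 CPM was high in naive T1792tg/tg replicate 4, and Ccnb2 at 7.03 CPM was high in naive wt replicate 3. In all, 14 of 224 sets of 4 values, each 1 gene or sum in 1 group, were past Dixon's critical value for the gap over the range. Chance gives about 1 in 20 for a single set. The sets share the same libraries and most of the 14 came from naive CD28-/- replicate 1, so the 14 cannot be weighed against that share.

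The response to stimulation differed between genotypes by the test of the difference itself for 41 members between CD28-/- and wt, 2 between T1792delta/delta and wt, 6 between T1792tg/tg and wt, and 7 between rescue and CD28-/-. Between CD28-/- and wt the log2 difference of the responses was -2.16 for Spc25 and -1.53 for Mad2l1. Between T1792delta/delta and wt it was 0.66 for Ncapd2 and 0.56 for Foxm1, and between T1792tg/tg and wt it was -0.68 for Ncapd2 and -0.96 for Spc25. Between rescue and CD28-/- it was 0.85 for Kif23 and 0.64 for Foxm1. The transgene's contrast at 24 h differed between the CD28-/- background and CD28-intact cells for 17 members, by 0.85 for Incenp and 0.96 for Foxm1.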

How the results depend on the processing

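Single members were followed for 453 results, nearly all of them calls, so gained calls show in the counts instead. Of their 8447 values under the alternatives, 7899 kept their direction and side of the threshold, 517 lost and 20 gained a call, and 11 reversed; of 397 counts of called members, 320 stayed within 1.5 times. The counts after stimulation and the 43 members of CD28-/- against wt at 24 h were among these. The reversals were of members that had not passed. Cenpa in CD28-/- against wt was -0.04 with a term for sex, -0.05 in female libraries alone, and between -0.05 and 0.09 when 1 library was left out. Smc4 in CD28-/- against wt was 0.02 without the 3 libraries low in long transcripts and between -0.25 and 0.18 when 1 library was left out, the highest without CD28-/- replicate 2. Smc4 in rescue against CD28-/- was -0.15 without those 3 libraries and between -0.15 and 0.28 with 1 left out. For the difference of the transgene's contrasts it ran between -0.37 and 0.06 with 1 left out.

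The replicate block over all groups gave 11 members for the difference of the transgene's contrasts, and the replicate block within genotype gave 12 for the response of rescue against CD28-/-; the block moved no other count by over 1.5 times. Without the filter the response of T1792delta/delta against wt gave 1. The filter at 5 CPM gave 5 for T1792tg/tg against wt at 24 h and 7 for these genotypes before culture, and DESeq2 gave 5 and 7 for the same. A term for sex gave 9 for T1792tg/tg against wt before culture and 9 for the difference of the transgene's contrasts. Without the 2 naive libraries that stood apart, rescue against wt before culture gave 3. Without the 3 libraries low in long transcripts, the counts were 4 for T1792delta/delta against wt, 1 for the response of T1792delta/delta, 4 for the response of rescue and 6 for the difference of the transgene's contrasts. Female libraries alone gave, at 24 h, 2 for T1792delta/delta against wt, 1 for T1792tg/tg against wt, 4 for T1792tg/tg against T1792delta/delta and 1 for the difference of the transgene's contrasts. Before culture they gave 3 for CD28-/- and 1 for T1792tg/tg against wt, and for the responses 0 for T1792delta/delta, 0 for T1792tg/tg and 4 for rescue; fewer libraries entered these fits, with a lone T1792tg/tg library assumed to vary like the others. Fits on the compared groups alone estimated the spread from fewer groups and gave, at 24 h, 13 for T1792delta/delta, 7 for T1792tg/tg and 35 for rescue against wt, 32 for T1792tg/tg against T1792delta/delta and 36 for the difference of the transgene's contrasts. They gave 3 for rescue against wt and 1 for rescue against CD28-/- before culture, and 12 for the response of T1792tg/tg and 2 for that of rescue. The cause of the other moves was not tested.

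Leaving out 1 library at a time gave between 4 and 6 for T1792delta/delta, between 1 and 6 for T1792tg/tg and between 11 and 26 for rescue against wt at 24 h, and between 11 and 33 for rescue against CD28-/-. It gave between 4 and 21 for the difference of the transgene's contrasts. Before culture it gave between 4 and 7 for T1792tg/tg and between 3 and 10 for rescue against wt, and between 2 and 9 for rescue against CD28-/-. The responses gave between 1 and 2 for T1792delta/delta, between 3 and 9 for T1792tg/tg and between 0 and 16 for rescue. Members at a few CPM in naive libraries, such as Cdk1 and Aurkb, limit the precision of the responses.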
